A study of Homo sapiens with 6 samples.

Results

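The genes encoding 4 ephrins and 6 Eph receptors were compared between BARD1-expressing and control ovarian carcinoma cells. The members were taken by symbol from the deposited gene count table, where each of the 10 names matched 1 of 58735 rows, and all 10 had enough reads to be tested. They are the ephrin genes EFNA1, EFNA5, EFNB1 and EFNB2 and the receptor genes EPHA2, EPHA4, EPHB2, EPHB3, EPHB4 and EPHB6, out of 22 genes of the family in the table. Poly(A)-selected RNA was sequenced from 3 libraries of BARD1-expressing cells and 3 libraries of control cells. The BARD1-expressing cells had been transduced with lentivirus carrying the BARD1 reading frame, whose expression was followed as GFP-BARD1. The labels call the other genotype control and do not say whether these cells received a virus. Both groups are labelled stable cells at 48 h, and no separately derived lines are named within a group, so BARD1 expression and any other difference between the 2 sets of cells cannot be told apart. Titles and growth protocol name the line OVCAR8ip1, while the cell line, tissue and source labels name SKOV3ip1 or its tumors, so the line and the kind of material are in conflict.

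Eph receptors form the largest family of receptor tyrosine kinases, and their ephrin ligands are themselves bound to the membrane of neighbouring cells. Ephrin-A proteins hang on a lipid anchor and bind mainly EphA receptors, whereas ephrin-B proteins span the membrane and bind mainly EphB receptors. Contact signals forward into the cell with the receptor and in reverse into the cell with the ephrin, and it controls cell repulsion, adhesion and migration. The pair of ephrin-B2 and EphB4 is known for marking arteries and veins in growing vessels, and EphA2 for its high levels in carcinomas, ovarian carcinoma among them.

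Libraries held 12744310 to 24349158 counted reads in BARD1-expressing cells and 21819199 to 23992482 in control cells. BARD1 itself stood at 46.3 ± 2.43 CPM in BARD1-expressing cells and 17.9 ± 1.30 CPM in control cells (SD, n = 3 each). CPM here are read counts relative to library size, corrected with edgeR's TMM factors. Of 15400 genes tested, 29.0% differed between the groups, 16.5% being higher and 12.4% lower in the BARD1-expressing libraries. A gene passed when its p from edgeR's quasi-likelihood test, after Benjamini-Hochberg adjustment, was under 0.05. Mitochondrial genes took 0.965% to 1.31% of reads in BARD1-expressing libraries and 1.90% to 2.40% in control libraries. Among carcinoma markers KRT8 stood at 2013 ± 76.1 CPM in BARD1-expressing cells and 2078 ± 37.8 CPM in control cells (SD, n = 3 each), and KRT19 and MUC16 had no count in any library. Of the 8 carcinoma markers 6 were tested, and 1 rose and 1 fell, where 29.0% of all tested genes passed. PAX8, a factor of the Müllerian epithelium, fell to 91.4 ± 6.09 CPM in BARD1-expressing cells, against 143 ± 8.98 CPM in control cells (SD, n = 3 each, edgeR adjusted p = 1.19e-08). WT1 rose at low levels and with overlapping groups, to 0.966 ± 0.721 CPM in BARD1-expressing cells, against 0.393 ± 0.079 CPM in control cells (SD, n = 3 each, edgeR adjusted p = 0.0246). The summed level of 8 endothelial markers was 5.27 to 7.72 CPM in BARD1-expressing libraries and 1.98 to 2.40 CPM in control libraries. Only 2 of the 8, KDR and TIE1, had enough reads to be tested, and both were higher, where 16.5% of all tested genes were. EMCN was at 0 in all libraries. TIE1 was the highest, at 4.52 ± 1.48 CPM in BARD1-expressing cells and 1.26 ± 0.136 CPM in control cells (SD, n = 3 each). The 8 fibroblast and pericyte markers summed to 840 to 888 CPM in BARD1-expressing libraries and 1016 to 1083 CPM in control libraries, nearly all of it COL1A1, with DCN at 0. Of the 8 markers 5 were tested, and 3 were higher and 1, COL1A1, lower, where 29.0% of all tested genes passed. PDGFRB rose to 13.7 ± 0.922 CPM in BARD1-expressing cells, against 4.81 ± 0.634 CPM in control cells (SD, n = 3 each, edgeR adjusted p = 2.24e-09). The other 2 were low, LUM at 0.795 and 0.186 CPM and ACTA2 at 0.770 and 0.303 CPM in BARD1-expressing and control cells. The 8 leukocyte markers summed to 1.42 to 2.52 CPM in BARD1-expressing libraries and 1.52 to 2.23 CPM in control libraries, with CD3E and MS4A1 at 0. Only 2 of these 8 had enough reads to be tested, and neither passed in either direction. The part of these differences in the results below was not tested, and in bulk RNA fewer cells of a type and less RNA per cell cannot be told apart.

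Of the 10 members 4 rose and 2 fell in BARD1-expressing cells, so 60% passed the test where 29.0% of all tested genes did. EPHB3, EPHB6, EFNA1 and EPHA2 were the 4 that rose, and EPHB2 and EFNB2 were the 2 that fell. At least 1.5-fold changes were found for 3 members, all higher (EPHB3, EPHB6 and EFNA1), against 9.94% of all tested genes in either direction. The 2 groups did not overlap for 7 members, against 40.9% of all tested genes. The median log2 fold change of the members was 0.14, and that of all tested genes -0.0027. The members were chosen with earlier results of these data known, so these shares describe the list and are no test of it. With 3 libraries against 3 the exact two-sided permutation test cannot go below p = 0.1, and each of these 7 members reached that value.

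**Figure D1:**
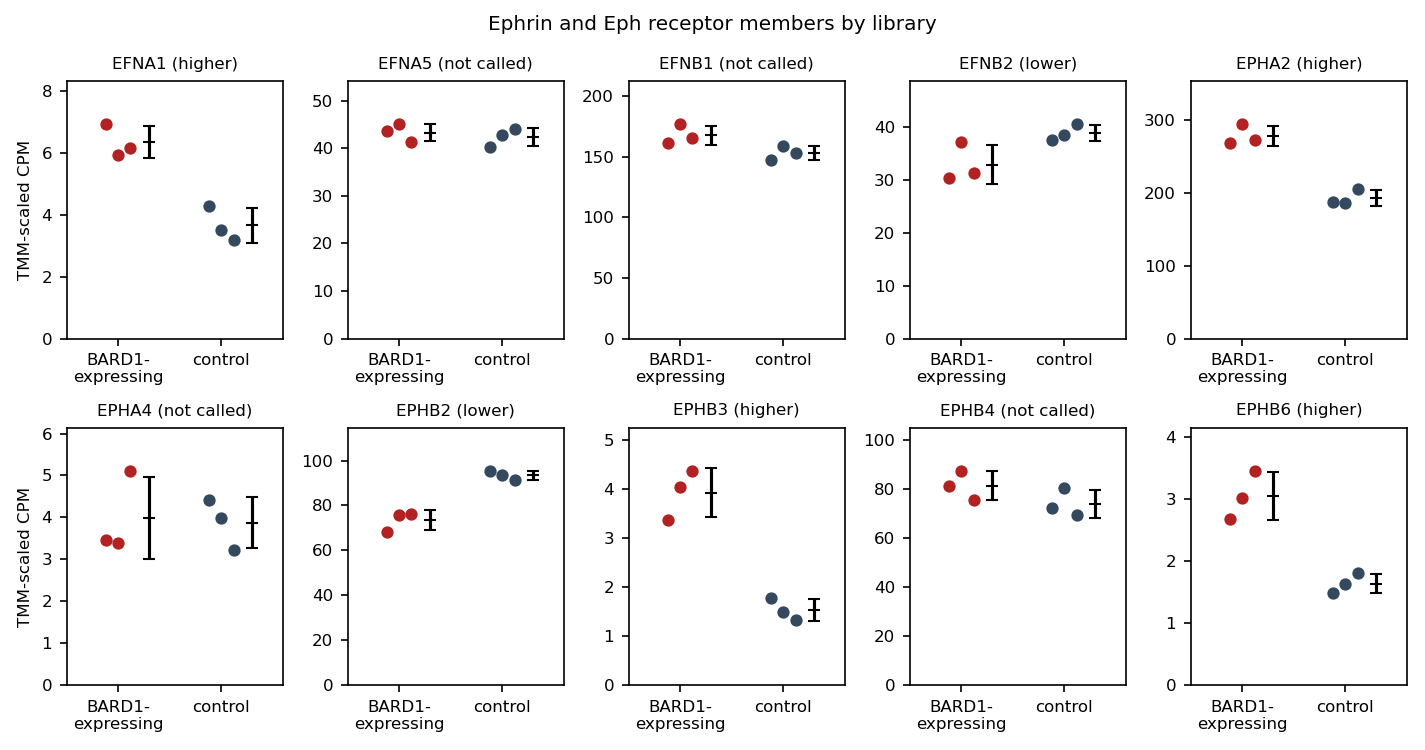
TMM-scaled CPM of the 10 members in each library (points), with the mean and SD of 3 libraries beside them (black), in BARD1-expressing cells (red) and control cells (dark blue), and with the edgeR call above each panel. All 3 BARD1-expressing libraries lie above all 3 control libraries for EFNA1, EFNB1, EPHA2, EPHB3 and EPHB6 and below them for EFNB2 and EPHB2.

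The ephrin-A ligand gene EFNA1 (ENSG00000169242, chromosome 1, 155127460 to 155134857, GRCh38), whose product is a main ligand of EphA2, had 88, 144 and 93 reads in BARD1-expressing libraries 1 to 3 and 104, 80 and 69 reads in control libraries 1 to 3. That came to 6.92, 5.95 and 6.17 CPM in BARD1-expressing libraries and 4.29, 3.50 and 3.18 CPM in control libraries. The lowest BARD1-expressing library lay above the highest control library. EFNA1 rose with a log2 fold change of 0.78 ± 0.165 (SE, edgeR adjusted p = 0.000823), a 1.72-fold difference with a 95% interval of 1.36 to 2.18. Its neighbours on chromosome 1 are the ephrin-A genes EFNA4 and EFNA3, all 3 within 71.13 kb, and neither of these passed the test. EFNA4 had a log2 fold change of -0.12 ± 0.152 (SE, edgeR adjusted p = 0.599) and EFNA3 one of -0.14 ± 0.275 (SE, edgeR adjusted p = 0.746). The annotated gene AL691442.1 overlaps both EFNA3 and EFNA4 on the same strand and had no reads, so the counts of EFNA3 and EFNA4 are uncertain.

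The other ephrin-A member, EFNA5 (ENSG00000184349, chromosome 5, 107376889 to 107670895), encodes a ligand of EphA receptors that can also bind EphB2. It stood at 43.6, 45.1 and 41.3 CPM in BARD1-expressing libraries 1 to 3 and at 40.3, 42.7 and 44.1 CPM in control libraries 1 to 3. The groups overlapped, and EFNA5 did not pass the test (log2 fold change 0.04 ± 0.070, SE, edgeR adjusted p = 0.757). The 95% interval of the fold ran from 0.927 to 1.13.

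Both ephrin-B ligand genes were expressed at higher levels than EFNA1. EFNB1 (ENSG00000090776, chromosome X, 68828997 to 68842147) encodes ephrin-B1, a ligand of EphB receptors in tissue boundaries. It had 161, 177 and 165 CPM in BARD1-expressing libraries 1 to 3 and 147, 159 and 153 CPM in control libraries 1 to 3. The groups were separated by a narrow margin, and EFNB1 did not pass the test, with a log2 fold change of 0.14 ± 0.054 (SE, edgeR adjusted p = 0.0618) and a 95% interval of the fold of 1.02 to 1.19. It passed without BARD1-expressing library 1 (log2 fold change 0.16, edgeR adjusted p = 0.0213). Within 1 Mb of EFNB1, 5 of 7 tested genes were higher in BARD1-expressing cells, where 16.5% of all tested genes were. The median log2 fold change of these 7 genes was 0.45. Whether EFNB1 changed with its region was not tested.

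EFNB2 (ENSG00000125266, chromosome 13, 106489731 to 106535662), the gene of the ephrin-B2 ligand of EphB4, had 30.3, 37.1 and 31.2 CPM in BARD1-expressing libraries 1 to 3 and 37.5, 38.5 and 40.5 CPM in control libraries 1 to 3. BARD1-expressing library 2 came close to the lowest control library. EFNB2 fell by 0.23 ± 0.081 on the log2 scale (SE, edgeR adjusted p = 0.0359), to 0.853 of the control level, with a 95% interval of 0.760 to 0.958. This call was lost without BARD1-expressing library 1 (-0.18, edgeR adjusted p = 0.0887), without BARD1-expressing library 3 (-0.20, edgeR adjusted p = 0.157), without control library 2 (-0.24, edgeR adjusted p = 0.0764) and without control library 3 (-0.20, edgeR adjusted p = 0.107). It was also lost with DESeq2 (-0.24, adjusted p = 0.0686).

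EPHA2 (ENSG00000142627, chromosome 1, 16124337 to 16156087) was the member with the highest read count in both groups. It had 3417, 7117 and 4105 reads in BARD1-expressing libraries 1 to 3 and 4556, 4244 and 4440 reads in control libraries 1 to 3. After scaling for depth these were 269, 294 and 272 CPM in BARD1-expressing libraries and 188, 186 and 205 CPM in control libraries. Every BARD1-expressing library was above every control library. EPHA2 rose with a log2 fold change of 0.53 ± 0.054 (SE, edgeR adjusted p = 3.8e-08), a 1.44-fold difference with a 95% interval of 1.34 to 1.56, and its adjusted p was the smallest among the members. EPHA4 (ENSG00000116106, chromosome 2, 221418027 to 221574202), whose receptor binds ephrins of both classes, had 3.46, 3.39 and 5.11 CPM in BARD1-expressing libraries 1 to 3 and 4.41, 3.99 and 3.23 CPM in control libraries 1 to 3. The groups overlapped, with BARD1-expressing library 3 the highest of all 6. EPHA4 did not pass the test (log2 fold change 0.02 ± 0.195, SE, edgeR adjusted p = 0.947), and at 44 to 107 reads a library its 95% interval of the fold was wide, 0.769 to 1.34.

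The EphB receptor genes moved in different directions. EPHB2 (ENSG00000133216, chromosome 1, 22710839 to 22921500), a receptor gene known as a target of Wnt signalling in the gut, had 68.3, 75.9 and 76.3 CPM in BARD1-expressing libraries 1 to 3 and 95.4, 93.4 and 91.2 CPM in control libraries 1 to 3. All BARD1-expressing libraries lay below all control libraries. EPHB2 fell by 0.34 ± 0.060 on the log2 scale (SE, edgeR adjusted p = 0.000104), to 0.789 of the control level, with a 95% interval of 0.724 to 0.860. EPHB3 (ENSG00000182580, chromosome 3, 184561784 to 184582409), which shares the Wnt-driven pattern of EPHB2 in the gut, went the other way. It had 43, 98 and 66 reads in BARD1-expressing libraries 1 to 3 and 43, 34 and 29 reads in control libraries 1 to 3, or 3.38, 4.05 and 4.38 CPM in BARD1-expressing libraries and 1.77, 1.49 and 1.34 CPM in control libraries. The lowest BARD1-expressing library was well above the highest control library. EPHB3 rose with a log2 fold change of 1.36 ± 0.218 (SE, edgeR adjusted p = 3.51e-05), a 2.57-fold difference with a 95% interval of 1.88 to 3.51, and this was the largest fold among the members.

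EPHB6 (ENSG00000106123, chromosome 7, 142855061 to 142871094) encodes a receptor whose kinase domain is catalytically inactive. It had 34, 73 and 52 reads in BARD1-expressing libraries 1 to 3 and 36, 37 and 39 reads in control libraries 1 to 3, which is 2.67, 3.01 and 3.45 CPM in BARD1-expressing libraries and 1.49, 1.62 and 1.80 CPM in control libraries. The groups did not overlap. EPHB6 rose with a log2 fold change of 0.90 ± 0.226 (SE, edgeR adjusted p = 0.00380), a 1.87-fold difference with a 95% interval of 1.35 to 2.58. EPHB4 (ENSG00000196411, chromosome 7, 100802565 to 100827521), the receptor of ephrin-B2, had 81.5, 87.5 and 75.5 CPM in BARD1-expressing libraries 1 to 3 and 72.4, 80.5 and 69.6 CPM in control libraries 1 to 3. Its groups overlapped and it did not pass the test (log2 fold change 0.14 ± 0.068, SE, edgeR adjusted p = 0.131, 95% interval of the log2 fold change -0.00051 to 0.28). EPHB4 overlaps SLC12A9 on the opposite strand, which had 252, 509 and 288 reads in BARD1-expressing libraries and 448, 447 and 377 reads in control libraries. No source here states a strand setting for the counting, so reads of EPHB4 and SLC12A9 cannot be told apart where they overlap.

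The regions before the starts of EPHA2, EPHB3 and EPHB2 are shown because EPHA2 gave the smallest p, EPHB3 the largest fold and EPHB2 the clearest fall. They are the 250 bases before the RefSeq start of each gene (GRCh38.p14), written 5′ to 3′ on the strand of the gene, at chr1:16156070-16156319 on the minus strand for EPHA2, chr3:184561535-184561784 on the plus strand for EPHB3 and chr1:22710588-22710837 on the plus strand for EPHB2. Capitals mark GC boxes (GGGCGG or its reverse complement CCGCCC) and the cyclic AMP response element (TGACGTCA, the same on both strands).
EPHA2: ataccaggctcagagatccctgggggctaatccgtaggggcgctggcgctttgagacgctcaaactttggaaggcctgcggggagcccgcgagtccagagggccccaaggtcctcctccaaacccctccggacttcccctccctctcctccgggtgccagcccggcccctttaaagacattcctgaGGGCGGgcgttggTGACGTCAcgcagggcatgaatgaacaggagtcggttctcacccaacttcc
EPHB3: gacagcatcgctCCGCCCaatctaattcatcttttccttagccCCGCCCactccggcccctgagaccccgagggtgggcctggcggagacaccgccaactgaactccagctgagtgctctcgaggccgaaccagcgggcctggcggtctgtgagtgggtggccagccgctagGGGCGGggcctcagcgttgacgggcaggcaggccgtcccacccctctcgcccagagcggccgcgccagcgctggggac
EPHB2: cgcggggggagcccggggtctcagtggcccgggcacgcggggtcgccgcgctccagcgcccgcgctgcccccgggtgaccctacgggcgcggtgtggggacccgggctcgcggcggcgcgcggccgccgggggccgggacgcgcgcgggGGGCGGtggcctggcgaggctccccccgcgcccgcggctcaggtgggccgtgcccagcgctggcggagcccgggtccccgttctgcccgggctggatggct
For EPHB6 the RefSeq start lies 7695 bases and for EFNA1 416 bases downstream of the gene start in the deposited table, so the 250 bases of these 2 members lie inside the gene as counted. A GC box stood in the 250 bases of all 10 members, these 2 included, against 42.6% of 35116 RefSeq promoters of that length, and the cyclic AMP response element in 1 of them, EPHA2, against 1.65%. A GC box consists only of G and C, and how far its share follows from base composition was not tested. None of the 10 held the E-box CACGTG (6.34% of all promoters) or the AP-1 motif TGANTCA (6.57%), both read on either strand. The TATA box (TATAAA or its reverse complement TTTATA) stood in 1 of the 10, EFNB2, against 10.7%. The share of G and C was 63.2% for EPHA2, 70.0% for EPHB3 and 84.8% for EPHB2, against a median of 58.0% over all promoters. It was above that median for 8 of the 10 members and below it for EPHA4 (43.2%) and EPHB6 (48.0%). For EPHA4 and EPHB2 RefSeq lists 2 entries each, of which only the first was used here.

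Levels of different genes were compared as CPM per kb of the gene length given in the deposited table. EPHA2 had the highest level, 66.9 ± 3.27 CPM per kb in BARD1-expressing cells and 46.4 ± 2.50 CPM per kb in control cells (SD, n = 3 each). EFNB1 came next at 50.7 ± 2.44 CPM per kb in BARD1-expressing cells and 46.2 ± 1.77 CPM per kb in control cells (SD, n = 3 each). The ranges of EPHA2 and EFNB1 were separate in BARD1-expressing cells and overlapped in control cells. EPHB4 was next in both groups, at 12.7 ± 0.935 CPM per kb in BARD1-expressing cells and 11.5 ± 0.887 CPM per kb in control cells (SD, n = 3 each). EFNA5, EFNB2 and EPHB2 followed with levels of 5.87 to 7.60 CPM per kb in BARD1-expressing cells and 7.43 to 7.73 CPM per kb in control cells, and each overlapped its neighbour in that order. The lowest 4 members were EFNA1, EPHB3, EPHB6 and EPHA4 at 0.528 to 2.50 CPM per kb in BARD1-expressing cells and 0.307 to 1.44 CPM per kb in control cells. Among these EPHB3 stood above EPHA4 in BARD1-expressing cells, at 0.869 ± 0.112 against 0.528 ± 0.129 CPM per kb, and below it in control cells, at 0.338 ± 0.049 against 0.513 ± 0.079 CPM per kb (SD, n = 3 each). The length in the table exceeded the longest coding transcript of the GENCODE annotation for 9 of the 10 members, at 1.005 to 1.49 times its length, so their levels per kb depend on which length is used. The excess was largest for EPHB4 (6435 against 4329 bases), EPHB6 (5325 against 4011 bases) and EFNA1 (2539 against 1926 bases), and EFNB1 had none.

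**Figure D2:**
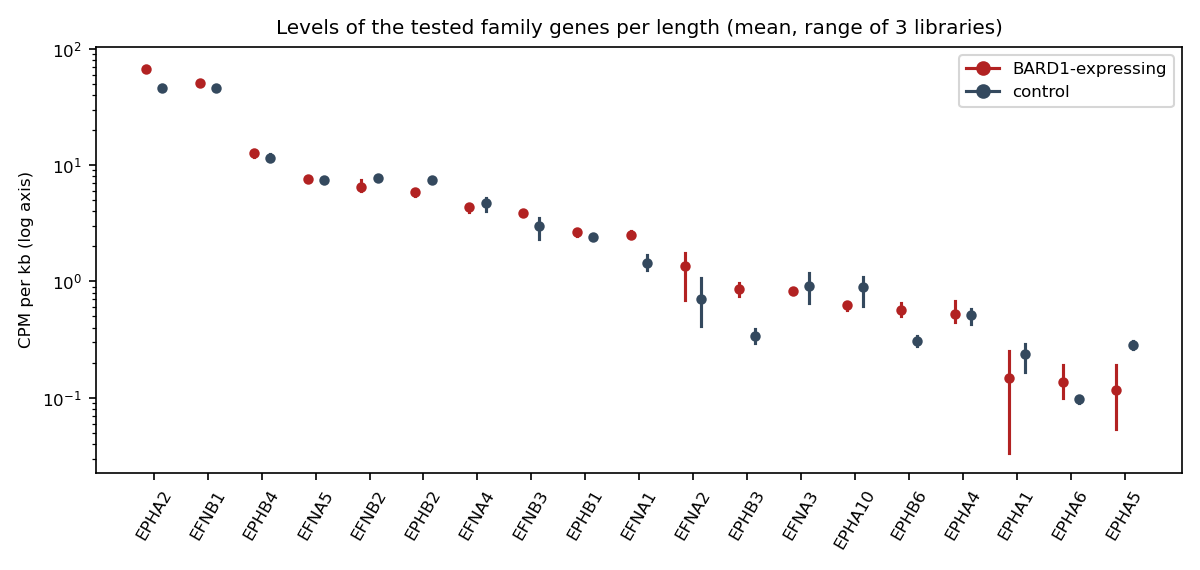
Level of each tested gene of the family in CPM per kb on a log axis, as the mean (point) and the range of 3 libraries (line), in BARD1-expressing cells (red) and control cells (dark blue), ordered by the level in BARD1-expressing cells. EPHA2 and EFNB1 stand above all other family genes in both groups, and EPHA2 reaches 66.9 CPM per kb in BARD1-expressing cells against 46.4 CPM per kb in control cells.

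Summed over the whole family, transcripts of EphA receptors came to 68.6 ± 3.30 CPM per kb in BARD1-expressing cells and 48.4 ± 2.20 CPM per kb in control cells, and those of EphB receptors to 22.6 ± 1.04 and 22.0 ± 0.948 CPM per kb (SD, n = 3 each). EphA genes thus made up 75.2% ± 0.271 of receptor transcripts in BARD1-expressing cells and 68.7% ± 1.83 in control cells (SD, n = 3 each). EPHA2 alone made up 73.4% of receptor transcripts in BARD1-expressing cells and 65.8% in control cells. EPHB2 made up 6.44% in BARD1-expressing cells and 10.6% in control cells. On the ligand side ephrin-B genes made up 78.6% ± 0.796 in BARD1-expressing cells and 78.9% ± 0.439 in control cells, with overlapping groups (SD, n = 3 each). EFNB2 made up 8.41% of ligand transcripts in BARD1-expressing cells and 10.7% in control cells. These sums are descriptions and were not tested.

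Ratios of members within a library do not depend on how the libraries are scaled, and 5 were compared. The ratio of EFNB2 to EPHB4 per length was 0.476, 0.544 and 0.530 in BARD1-expressing libraries 1 to 3 and 0.665, 0.612 and 0.746 in control libraries 1 to 3. All BARD1-expressing libraries were below all control libraries, with a log2 difference of -0.38. The ratio of EPHB2 to EPHB4 was 0.431, 0.446 and 0.520 in BARD1-expressing libraries and 0.678, 0.596 and 0.674 in control libraries, a log2 difference of -0.48 without overlap. The ratio of EFNB1 to EFNB2 was 8.07, 7.22 and 8.03 in BARD1-expressing libraries and 5.94, 6.26 and 5.73 in control libraries, a log2 difference of 0.38 without overlap. Each of these 3 ratios gave p = 0.1 in the exact two-sided permutation test, the smallest p possible, and 0.167 adjusted over the 5 ratios. The ratios of EFNA1 to EPHA2 (log2 difference 0.27, exact permutation p = 0.3, adjusted 0.3) and of EPHA4 to EPHA2 (log2 difference -0.50, exact permutation p = 0.2, adjusted 0.25) overlapped between the groups.

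Of the 12 other genes of the family 9 were tested, and 1 rose and 2 fell in BARD1-expressing cells. That is 33.3%, a share near the 29.0% of all tested genes. Over all 19 tested genes of the family, the 10 members included, 47.4% passed. EPHA5 (ENSG00000145242), which encodes an EphA receptor best known from the brain, had 24, 25 and 8 reads in BARD1-expressing libraries 1 to 3 and 74, 59 and 58 reads in control libraries 1 to 3. It fell by 1.32 ± 0.298 on the log2 scale (SE, edgeR adjusted p = 0.00159). The processed pseudogene AC115223.1 overlaps EPHA5 on the opposite strand with 161, 411 and 207 reads in BARD1-expressing libraries and 392, 365 and 302 reads in control libraries, and it did not pass the test (log2 fold change -0.07 ± 0.112, SE, edgeR adjusted p = 0.693). EFNB3, the remaining ephrin-B gene, stood at 12.5 ± 0.421 CPM in BARD1-expressing cells and 9.75 ± 2.01 CPM in control cells (SD, n = 3 each) and rose (log2 fold change 0.36 ± 0.130, SE, edgeR adjusted p = 0.0429). The EFNB3 call was lost without control library 2 (0.41, edgeR adjusted p = 0.0511), control library 3 (0.20, 0.258), BARD1-expressing library 2 (0.37, 0.0797) or BARD1-expressing library 3 (0.32, 0.141) and with DESeq2 (adjusted p = 0.114). EPHA10, another receptor gene with an inactive kinase domain, stood at 5.08 ± 0.379 CPM in BARD1-expressing cells and 7.25 ± 2.04 CPM in control cells (SD, n = 3 each), with overlapping groups. It fell by 0.51 ± 0.179 on the log2 scale (SE, edgeR adjusted p = 0.0361). The EPHA10 call was lost without control library 1 (-0.46, edgeR adjusted p = 0.114), control library 2 (-0.34, 0.224), BARD1-expressing library 1 (-0.46, 0.0574), BARD1-expressing library 2 (-0.55, 0.0831) or BARD1-expressing library 3 (-0.54, 0.0768) and with DESeq2 (adjusted p = 0.0877). With these calls lost, 1 of the other family genes passed the test without control library 2, without BARD1-expressing library 2 and with DESeq2, in place of 3.

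**Figure D3:**
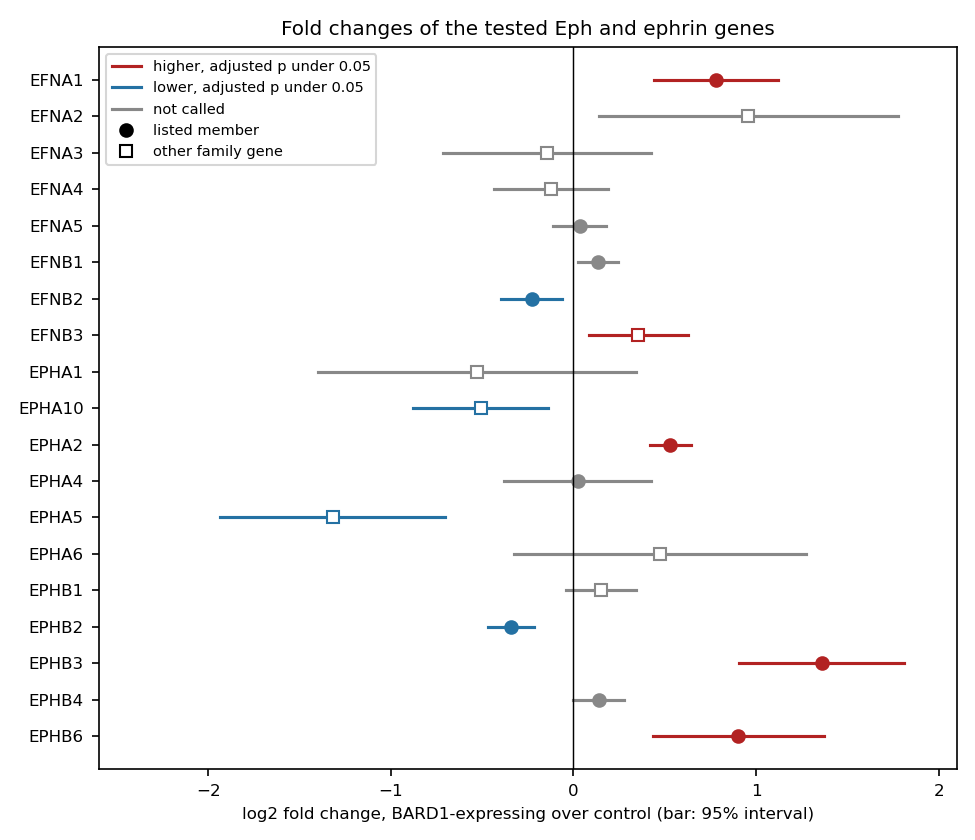
Log2 fold change of BARD1-expressing over control cells for the 19 tested family genes with 95% intervals (bars), for listed members (filled circles) and other family genes (open squares), coloured by the edgeR call. Genes of the same class lie on both sides of 0, with EPHB3 at 1.36 and EPHB2 at -0.34 and with EFNB3 at 0.36 and EFNB2 at -0.23.

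The remaining tested genes were EFNA2, EFNA3, EFNA4, EPHA1, EPHA6 and EPHB1, with log2 fold changes between -0.53 (EPHA1) and 0.96 (EFNA2), and none of these 6 passed. EFNA2 passed without BARD1-expressing library 3 (1.24, edgeR adjusted p = 0.0290) and without control library 3 (1.35, edgeR adjusted p = 0.0291), and it had 10 to 38 reads in BARD1-expressing libraries and 9 to 22 in control libraries. EPHB1, an EphB receptor gene, was the most abundant of the 6 at 18.5 ± 1.15 CPM in BARD1-expressing cells and 16.6 ± 0.148 CPM in control cells (SD, n = 3 each, log2 fold change 0.15 ± 0.092, SE, edgeR adjusted p = 0.244). EPHA1 overlaps the far more abundant gene ZYX, with 6327 to 13038 reads in BARD1-expressing libraries and 12859 to 14245 in control libraries. EPHA1 itself had 2 to 29 reads in BARD1-expressing libraries and 18 to 33 in control libraries, so its count is uncertain. EPHA3, EPHA7 and EPHA8 had too few reads to be tested. EPHA7 had 6, 14 and 5 reads in BARD1-expressing libraries and 5, 2 and 3 in control libraries. EPHA3 had 2, 6 and 4 reads in BARD1-expressing libraries and 3, 0 and 0 in control libraries. EPHA8 had 5, 0 and 0 reads in BARD1-expressing libraries and 0 in each control library, where a count of 0 allows up to 3 counts, or 0.125 to 0.137 CPM.

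Genes known to act with Eph receptors and ephrins moved in both directions. Of 52 such genes 49 were tested, and 13 rose and 6 fell. That is 38.8%, where 29.0% of all tested genes passed, and the median log2 fold change of the 49 was 0.09. These lists were chosen with earlier results of these data known, so this share and those of each list below are descriptions only. Among adaptors of forward signalling 4 of 14 (28.6%) rose and none fell, a share near that of all tested genes. The weakest of the 4 was CBL (log2 fold change 0.17 ± 0.053, SE, edgeR adjusted p = 0.0215), which lost its call in 6 of 11 alternatives, the replicate block among them (edgeR adjusted p = 0.0617). The SH2 adaptor gene SHB rose with a log2 fold change of 0.88 ± 0.130 (SE, edgeR adjusted p = 1.19e-05), at 10.2, 13.6 and 11.1 CPM in BARD1-expressing libraries and 6.11, 6.75 and 6.41 CPM in control libraries. GRB7, an adaptor gene that lies beside ERBB2, had 23, 16 and 24 reads in BARD1-expressing libraries and 4, 4 and 7 reads in control libraries (log2 fold change 2.51 ± 0.491, SE, edgeR adjusted p = 0.000359). NCK2, which links receptors to actin regulators, stood at 68.2 ± 1.64 CPM in BARD1-expressing cells and 56.1 ± 1.34 CPM in control cells (SD, n = 3 each, edgeR adjusted p = 0.00120).

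The kinase gene ROCK1, whose product drives actomyosin contraction, fell by 0.65 ± 0.054 on the log2 scale (SE, edgeR adjusted p = 1.41e-09), while its paralog ROCK2 had a log2 fold change of 0.09 ± 0.061 (SE, edgeR adjusted p = 0.295). CHN1, whose product chimaerin inactivates Rac, fell by 0.41 ± 0.086 (SE, edgeR adjusted p = 0.000764) and ITSN1, an exchange factor of Cdc42 that acts with EphB2, by 0.32 ± 0.060 on the log2 scale (SE, edgeR adjusted p = 0.000244). The exchange factor genes VAV2 (log2 fold change 0.25 ± 0.056, SE, edgeR adjusted p = 0.00139) and TIAM1 (0.26 ± 0.090, SE, edgeR adjusted p = 0.0312) rose. The TIAM1 call was lost without control library 1 (0.24, edgeR adjusted p = 0.0966), control library 2 (0.20, 0.176), BARD1-expressing library 2 (0.26, 0.0643) or BARD1-expressing library 3 (0.19, 0.201) and with DESeq2 (adjusted p = 0.0822). Of 9 kinases and phosphatases 2 rose and 1 fell, or 33.3%, a share near the 29.0% of all tested genes. The Src family kinase gene FYN rose with a log2 fold change of 0.50 ± 0.072 (SE, edgeR adjusted p = 7.34e-06) and LYN with one of 0.31 ± 0.067 (SE, edgeR adjusted p = 0.00111), whereas YES1 of the same family fell by 0.64 ± 0.059 on the log2 scale (SE, edgeR adjusted p = 7.45e-09). ROCK1 and YES1 lie on chromosome 18, where 170 of 228 tested genes (74.6%) passed as lower in BARD1-expressing cells and 4 as higher. Of all tested genes 12.4% were lower and 16.5% higher. The median log2 fold change on chromosome 18 was -0.66. None of the 10 members lies on that chromosome.

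Of 8 tested genes of reverse signalling through the ephrin-B tail 2 rose and 2 fell, where 29.0% of all tested genes passed. PICK1, a PDZ protein gene, rose (log2 fold change 0.47 ± 0.087, SE, edgeR adjusted p = 0.000213), as did NCK2, which is also in the adaptor list. The PDZ scaffold gene GRIP1 fell by 0.61 ± 0.177 on the log2 scale (SE, edgeR adjusted p = 0.0107), a call lost without BARD1-expressing library 3 (-0.44, edgeR adjusted p = 0.0833). PTPN13, a phosphatase gene, fell by 0.21 ± 0.074 on the log2 scale (SE, edgeR adjusted p = 0.0346). The PTPN13 call was lost without control library 1 (-0.21, edgeR adjusted p = 0.0798), control library 3 (-0.17, 0.139), BARD1-expressing library 2 (-0.19, 0.103) or BARD1-expressing library 3 (-0.19, 0.151), with the replicate block (-0.21, 0.0593) and with DESeq2 (adjusted p = 0.0635). Neither fall thus held without BARD1-expressing library 3. Among 7 listed proteases and protease subunits, several of them known to cut ephrins or Eph receptors, 4 rose and none fell, where 16.5% of all tested genes rose. MMP14, which cleaves EphA2, stood at 160 ± 9.75 CPM in BARD1-expressing cells and 128 ± 9.93 CPM in control cells (SD, n = 3 each, edgeR adjusted p = 0.000281). BACE1 stood at 10.3 ± 0.986 and 7.35 ± 0.777 CPM in BARD1-expressing and control cells (SD, n = 3 each, edgeR adjusted p = 0.00500). ADAM10, which cuts ephrin-A ligands bound to their receptor, stood at 157 ± 6.49 CPM in BARD1-expressing cells and 138 ± 6.26 CPM in control cells (SD, n = 3 each, edgeR adjusted p = 0.0147). The ADAM10 call was lost without control library 1 (log2 fold change 0.14, edgeR adjusted p = 0.118), control library 2 (0.18, 0.0589) or BARD1-expressing library 3 (0.18, 0.0663). ADAM17 rose (log2 fold change 0.24 ± 0.075, SE, edgeR adjusted p = 0.0156), a call lost without control library 1 (0.21, 0.0821), BARD1-expressing library 1 (0.18, 0.0618) or BARD1-expressing library 3 (0.23, 0.0764). Without control library 1, and again without BARD1-expressing library 3, both ADAM calls were lost.

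**Figure D4:**
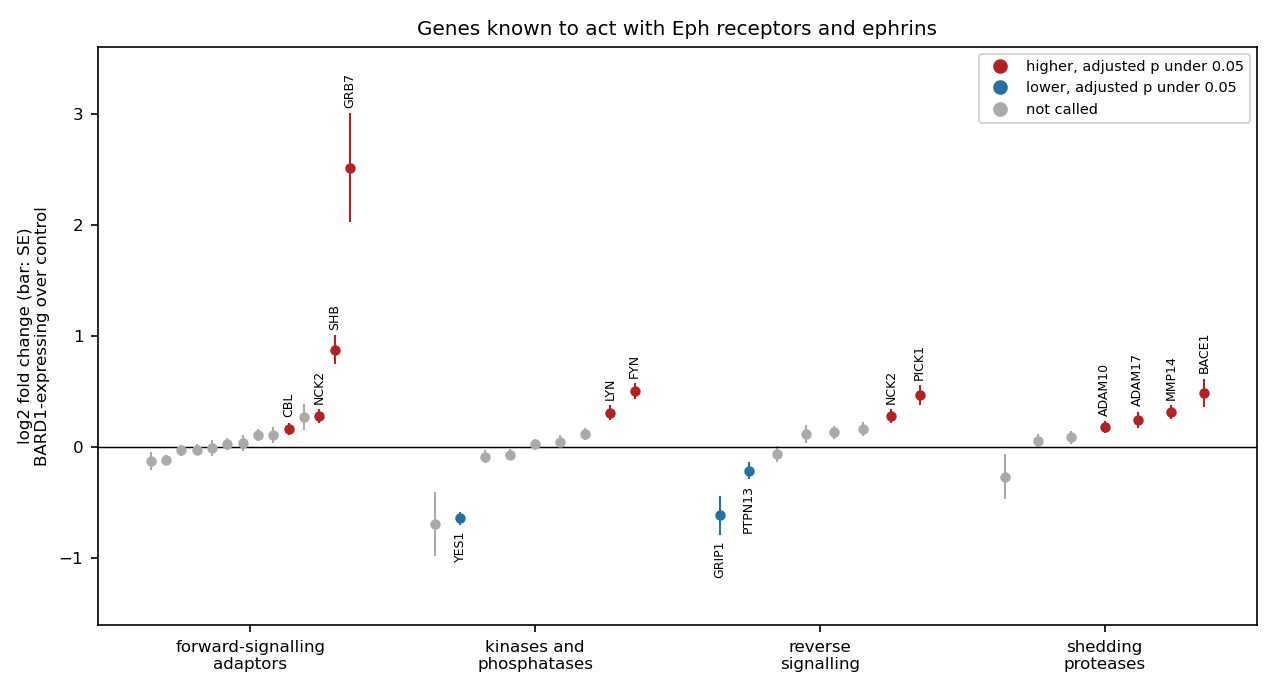
Log2 fold change of BARD1-expressing over control cells for the tested genes of 4 lists of Eph and ephrin partners (adaptors, kinases and phosphatases, reverse signalling and proteases), with SE bars, coloured by the edgeR call and with called genes named. Called genes lie on both sides of 0 in the lists of kinases and phosphatases and of reverse signalling, and only above 0 among the 14 adaptors and the 7 proteases.

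For the 6 called members the tested genes within 1 Mb had median log2 fold changes between -0.095 (EPHB3, 25 genes) and 0.078 (EPHA2, 36 genes). Each median was closer to 0 than the change of the member itself, which largely follows from picking members that were called. EFNB2 had only 2 such neighbours, 1 higher and 1 lower, so its median says little. A shift of the region was not tested. EFNA1 was the called member with a mean of at least 5 CPM in either group and the largest fold. The 3 protein-coding genes whose centred log2 CPM followed EFNA1 most closely over the 6 libraries were PRDM16, WDR11 and TSPAN13, with root mean square differences of 0.0666, 0.0818 and 0.0820 on the log2 scale. PRDM16, a zinc finger regulator gene, stood at 7.79 CPM in BARD1-expressing cells and 4.32 CPM in control cells (log2 fold change 0.83 ± 0.161, SE, edgeR adjusted p = 0.000355). Because PRDM16 was chosen for its likeness to EFNA1 over the same libraries, its fold and p follow from that choice and are no separate result.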

How the data were processed

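Counts of reads per gene were deposited by the authors as whole numbers with a different total in each of the 6 libraries, on GRCh38. The tools listed, without role or options, are DESeq2 1.20.0, HISAT2 2.0.5 and featureCounts 1.5.0-p3, per the submitters' processing notes. Gene lengths in bases are those of the deposited table. Columns were matched to libraries by the labels' descriptions. No other columns of values were present. Between libraries of a group the chi-square per degree of freedom was 3.41 to 8.11 over genes with at least 20 counts, so each of the 6 counted as its own replicate. The labels call them biological without naming separate cultures, so the spread behind each p-value is that of these libraries and may be technical.

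Genes were filtered with filterByExpr, which left 15400, scaled by TMM and tested in R 4.3.3 with edgeR 4.0.16 (robust quasi-likelihood F test on group alone, 4 residual degrees of freedom). Benjamini-Hochberg adjustment covered the whole set of tested genes. Fold changes are BARD1-expressing over control. The limit of 3 counts for a count of 0 covers counting error only. The procedure was tested on simulated data. The alternatives were DESeq2 1.42.0, its size factors, no filter, scaling without shifted chromosomes, a replicate block and each library left out.

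The members, gene lists, marker lists and promoter regions were chosen with earlier results of these data known. Named genes are the members, tested family genes, up to 3 called genes per partner list by p, the 3 genes closest to 1 member in profile, BARD1 and the highest marker of each list. ROCK2, CBL, VAV2, TIAM1, PTPN13, ADAM17, PAX8, WT1, KDR, PDGFRB, LUM, ACTA2 and the overlapping genes were added after their values were seen. Promoters are from RefSeq, the first entry listed for each of the 10 members. The count of a further partner list is not reported here.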

Additional observations from a re-analysis of the deposited data

How the results depend on the processing

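Over 11 alternatives for each of the 10 members, 100 of 110 values kept their direction and their side of the threshold. EFNB2 lost its call in 5 of 11, at -0.24 to -0.18 with 1 library left out and -0.24 with DESeq2. It kept its call without control library 1 (-0.26) and without BARD1-expressing library 2 (-0.34). EFNB1, not called, lay at 0.0905 to 0.16 with 1 library left out, and passed without BARD1-expressing library 1. EFNA5 and EPHA4, not called, changed sign and lay at -0.0069 to 0.063 and at -0.19 to 0.15, and EFNA3 at -0.33 to 0.091. The cause was not tested. Fewer libraries entered the fits with 1 library left out, whereas the DESeq2 fit used all libraries. The members called numbered 5 to 6, and those lower 1 to 2 with 1 library left out and 1 with DESeq2. The other family genes called numbered 1 to 3 with 1 library left out and 1 with DESeq2. The summed EphB level had a log2 ratio of 0.04 per length and -0.054 without length, since long genes then weigh more. All tested genes called numbered 3317 to 4755.

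Replicate numbers in the labels did not pair the libraries: the correlation of same-numbered deviations was -0.348, -0.0293 and -0.0753, and 0 of 6 libraries correlated best with their own number. With the replicate block 6 members, 3 other family genes, 17 partner genes and 3990 of all tested genes were called. The 4 members with under 150 reads a library (EFNA1, EPHA4, EPHB3 and EPHB6) had the widest intervals.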

Other observations

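CDC42, the gene of a GTPase downstream of Eph receptors, had 12, 27 and 23 reads in BARD1-expressing libraries 1 to 3 and 29, 26 and 16 reads in control libraries 1 to 3. That is 1.19 ± 0.299 CPM in BARD1-expressing cells and 1.02 ± 0.250 CPM in control cells (SD, n = 3 each). In the deposited table CDC42 (chromosome 1, 22052627 to 22092946) lies wholly inside AL031281.2 (22025511 to 22101360) on the same strand, which had 0 to 2 reads a library. The count of CDC42 is therefore uncertain, and it was not called (log2 fold change 0.21 ± 0.331, SE, edgeR adjusted p = 0.680). CDC42 was singled out after its values were seen.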
